A study of Mus musculus with 2 samples.

Results

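The T follicular helper (Tfh) program is followed here through 10 genes, Bcl6, Maf, Batf, Tox2, Ascl2, Cxcr5, Pdcd1, Icos, Sh2d1a and Il21, out of 31053 genes in the count tables. Each symbol matched 1 row in the gene lists of both libraries, and no member was dropped. The genes were read in every T cell subset and in B cells of the mediastinal lymph nodes (MedLNs), which drain the lung. The data were single-cell RNA counts from 2 libraries made with the 10x 3′ chemistry, each prepared from pooled cells of 4 mice. All mice were wild-type C57/B6J animals with asthma induced by ovalbumin (OVA), sensitized with OVA in alum by intraperitoneal injection and then challenged with OVA through the nose. One library (w/o butyrate) came from such mice alone, and the other (w/ butyrate) from such mice given butyrate (C4), a short-chain fatty acid made by gut bacteria. The study's methods describe butyrate given in drinking water or by gavage, and neither they nor the labels say which applied to these cells. By the methods, the mice of an experiment were matched for age and sex.

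Tfh cells are CD4+ T cells that enter B cell follicles and help B cells form germinal centers, switch antibody class and mature in affinity. Bcl6 is the repressor that sets the program, and Maf, Batf, Tox2 and Ascl2 are transcription factors that act with it. Cxcr5 draws the cell to the follicle, Icos and Pdcd1 receive signals from B cells there, the adaptor Sh2d1a (SAP) holds T and B cells together, and Il21 is the cytokine delivered to the B cell. None of these genes belongs to Tfh cells alone: naive B cells carry Cxcr5, germinal center B cells carry Bcl6, and regulatory T cells carry Icos, Maf and Batf.

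Each condition had 1 library, so no test between conditions could be made and no p-value is given. All intervals are exact 95% intervals of counting error (Poisson for levels, binomial for shares and ratios) and cover neither differences between mice nor those between library preparations. The intervals of levels and of their ratios treat each UMI as independent. They are too narrow where a few cells hold many of a gene's UMIs. Of 9681 cells w/o butyrate and 8932 w/ butyrate, 8774 and 8013 were kept, with medians of 5069 and 5648 unique molecular identifiers (UMIs) per cell and totals over all deposited cells of 59176459 and 58381292 UMIs. The libraries shared 22 cell barcodes among kept cells. Cells were put into classes by UMIs of Cd3e, Cd4, Cd8a, Foxp3 and Cd79a. The CD4+ T class (Cd3e and Cd4, no Foxp3 or Cd8a) held 947 cells w/o and 850 w/ butyrate, with medians of 5269 and 6096.5 UMIs. The Foxp3+ T class held 180 and 161 cells, the CD8+ T class 1607 and 1649 cells, and the B cell class (at least 2 Cd79a UMIs and no Cd3e) 4137 and 3892 cells. T cells with none of Cd4, Cd8a and Foxp3 numbered 1058 and 823 and are called unassigned T cells. A list of 4 T cell markers, Cd3e among them, summed to between 2403 and 3071 CPM in the CD4+, Foxp3+ and CD8+ T classes and to 18.0 and 22.0 CPM in B cells. Levels are summed UMIs of a gene per 1000000 UMIs of the class (CPM). They are compared for 1 gene between classes or libraries, and not between genes. Markers of other states differed between the libraries in the same classes: the summed level of an interferon-response list was 2685 CPM w/o and 1310 CPM w/ butyrate in CD4+ T cells, and 1314 and 757 CPM in B cells. Their part in the results below was not tested.

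Where each gene was found differed more between lineages than between libraries. Bcl6 (chr16:23965052-23988852, minus strand, GRCm38) had its highest level in B cells, at 19.94 CPM [18.12, 21.88] w/o and 24.89 CPM [22.83, 27.1] w/ butyrate. In CD4+ T cells it reached 10.84 CPM [8.27, 13.96] and 9.05 CPM [6.74, 11.9], from 60 and 51 UMIs. CD8+ T cells had 3.36 and 4.05 CPM of Bcl6, and Foxp3+ T cells 1.93 CPM from 3 UMIs and 5.28 CPM from 7 UMIs. The B cell and CD4+ T cell intervals did not overlap in either library, while those of Foxp3+ and CD8+ T cells did.

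Bcl6 has 2 start sites in RefSeq's promoter table (GRCm38.p6), and the 250 bases before each are shown because the gene is read at low level in so many lineages. Capitals mark TTCNNNGAA, the spacing bound by STAT proteins and also read by BCL6 itself, which is its own reverse complement. The distances from the start are 118 bases for the single match at the upstream start, and 168, 122 and 88 bases for the 3 matches at the downstream start. This motif is found in 7.01% of the 32817 promoter windows of that length. A match of letters is not a measured site.
Bcl6, upstream start, chr16:23988853-23989102, minus strand: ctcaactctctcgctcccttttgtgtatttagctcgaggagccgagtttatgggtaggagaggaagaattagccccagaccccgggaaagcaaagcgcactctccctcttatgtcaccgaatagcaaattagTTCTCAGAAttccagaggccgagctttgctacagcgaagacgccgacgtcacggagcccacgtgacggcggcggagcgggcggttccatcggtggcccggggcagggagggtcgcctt
Bcl6, downstream start, chr16:23981284-23981533, minus strand: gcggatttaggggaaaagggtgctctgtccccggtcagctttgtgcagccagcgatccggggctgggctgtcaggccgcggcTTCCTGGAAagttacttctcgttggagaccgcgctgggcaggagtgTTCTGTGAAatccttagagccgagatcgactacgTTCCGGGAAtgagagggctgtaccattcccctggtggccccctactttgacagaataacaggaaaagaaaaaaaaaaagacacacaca

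Maf (chr8:115682942-115707794, minus strand), a bZIP factor that drives Il21 and Il4 in helper cells, was highest in Foxp3+ T cells. Its level there was 223.4 CPM [200.6, 248.2] w/o and 208.3 CPM [184.5, 234.4] w/ butyrate. CD4+ T cells had 88.36 and 74.51 CPM, B cells 12.21 and 10.16 CPM, and CD8+ T cells 3.11 and 4.13 CPM. Outside T and B cells Maf was read in cells with myeloid markers, at 197.3 CPM in 37 cells w/o butyrate and 24.99 CPM in 32 cells w/ butyrate.

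Batf (chr12:85686669-85709087, plus strand), the AP-1 partner of IRF4, followed the same order at the top. It stood at 166.9 CPM [147.3, 188.5] w/o and 130.6 CPM [111.9, 151.6] w/ butyrate in Foxp3+ T cells. CD4+ T cells had 64.69 and 48.61 CPM, CD8+ T cells 35.82 and 31.87 CPM, and B cells 22.0 and 19.07 CPM, and neighbours in this order had intervals that did not overlap.

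Tox2 (chr2:163203125-163324170, plus strand), an HMG-box factor, was highest in CD4+ T cells, at 21.86 CPM [18.14, 26.13] w/o and 18.09 CPM [14.75, 21.97] w/ butyrate. Foxp3+ T cells had 5.14 CPM from 8 UMIs and 14.34 CPM from 19 UMIs, so that the intervals of both T cell classes overlapped w/ butyrate and not w/o it. In B cells Tox2 came to 15 and 23 UMIs in all. Ascl2 (chr7:142966829-142969264, minus strand), a basic helix-loop-helix factor that raises Cxcr5, was read in the fewest CD4+ T cells of the 10 members. It had 33 UMIs in 13 CD4+ T cells w/o and 41 UMIs in 12 cells w/ butyrate, or 5.96 and 7.27 CPM. No Ascl2 UMI was read in the 4137 and 3892 B cells, of which 3 cells with a UMI would be 0.0725% and 0.0771%.

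Among the receptors, Cxcr5 (chr9:44511787-44561877, minus strand) was a B cell gene by level. It reached 62.37 CPM [59.13, 65.73] w/o and 71.04 CPM [67.52, 74.7] w/ butyrate in B cells, against 11.93 CPM [9.22, 15.17] and 11.18 CPM [8.59, 14.3] in CD4+ T cells. Foxp3+ T cells had 10.91 and 14.34 CPM of Cxcr5 and could not be told from CD4+ T cells within counting error. CD8+ T cells had 4.46 and 4.91 CPM. Free RNA from B cells can leave Cxcr5 UMIs in T cells, and 7.5% and 8.8% of CD4+ T cells held a Cd79a UMI. B cells held 22.4 and 24.8 Cxcr5 UMIs per 1000 Cd79a UMIs, whereas CD8+ T cells held 53 Cxcr5 UMIs against 149 of Cd79a w/o butyrate and 69 against 181 w/ butyrate. CD4+ T cells held 66 against 71 and 63 against 75. The T cell classes exclude cells with 2 or more Cd79a UMIs, which raises these ratios by an amount that was not measured.

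Pdcd1 (chr1:94038305-94052553, minus strand), which encodes PD-1, had 29.09 CPM [24.77, 33.95] in CD4+ T cells w/o butyrate, above the 16.05 CPM [10.39, 23.69] in Foxp3+ T cells. W/ butyrate the 2 classes stood the other way round, at 24.66 CPM [20.73, 29.12] in CD4+ and 31.7 CPM [22.85, 42.86] in Foxp3+ T cells, with overlapping intervals. CD8+ T cells had 1.77 and 3.06 CPM. In B cells, which lack PD-1 at rest, 6 of 4137 and 1 of 3892 cells held a UMI, or 0.145% and 0.0257%, at medians of 4393 and 4608 UMIs per cell. The shares in CD4+ T cells, 6.55% and 5.29%, lay well above that background. The B cell class excludes cells with a Cd3e UMI, which can lower this background by an amount that was not measured.

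Icos (chr1:60977927-61000320, plus strand), the costimulatory receptor for Icosl on B cells, was 3.21-fold higher in Foxp3+ than in CD4+ T cells w/o butyrate and 3.77-fold higher w/ butyrate. The levels in Foxp3+ T cells were 220.2 and 205.3 CPM. CD4+ T cells had 68.67 and 54.46 CPM, and CD8+ T cells 36.49 and 30.8 CPM. Sh2d1a (chrX:42502453-42529330, plus strand) was the member found in most CD4+ T cells. It was read in 360 of 947 (38.0%) w/o and 331 of 850 (38.9%) w/ butyrate, at 143.8 and 112.3 CPM. Foxp3+ T cells had 188.1 and 155.5 CPM and CD8+ T cells 73.4 and 75.26 CPM. B cells held 13 and 27 Sh2d1a UMIs in all.

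Il21 (chr3:37222759-37232636, minus strand) was close to a marker of single cells. It was read in 18 CD4+ T cells w/o butyrate (1.9% [1.13, 2.99]) and in 17 w/ butyrate (2% [1.17, 3.18]), at 7.41 CPM [5.32, 10.05] and 10.29 CPM [7.81, 13.3]. No Foxp3+ T cell held a UMI in either library, where 3 cells with a UMI would be 1.67% of 180 and 1.86% of 161 cells. CD8+ T cells had 0 and 2 UMIs and B cells 2 and 0. The 250 bases before its start are shown as those of the cytokine on which the program converges. Capitals mark the 1 match to TGCTGA, letters bound by MAF proteins, 234 bases before the start on the coding strand. These letters are found on either strand in 16.1% of all promoter windows. No match to TGANTCA (the AP-1 site bound by BATF), CAGCTG (an E-box) or TTCNNNGAA lies in this window on either strand.
Il21, chr3:37232637-37232886, minus strand: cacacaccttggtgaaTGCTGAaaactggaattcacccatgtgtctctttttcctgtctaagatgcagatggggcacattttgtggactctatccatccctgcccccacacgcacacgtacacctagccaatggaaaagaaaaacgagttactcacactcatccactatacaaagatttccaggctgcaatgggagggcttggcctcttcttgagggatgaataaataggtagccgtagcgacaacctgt

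**Figure D1:**
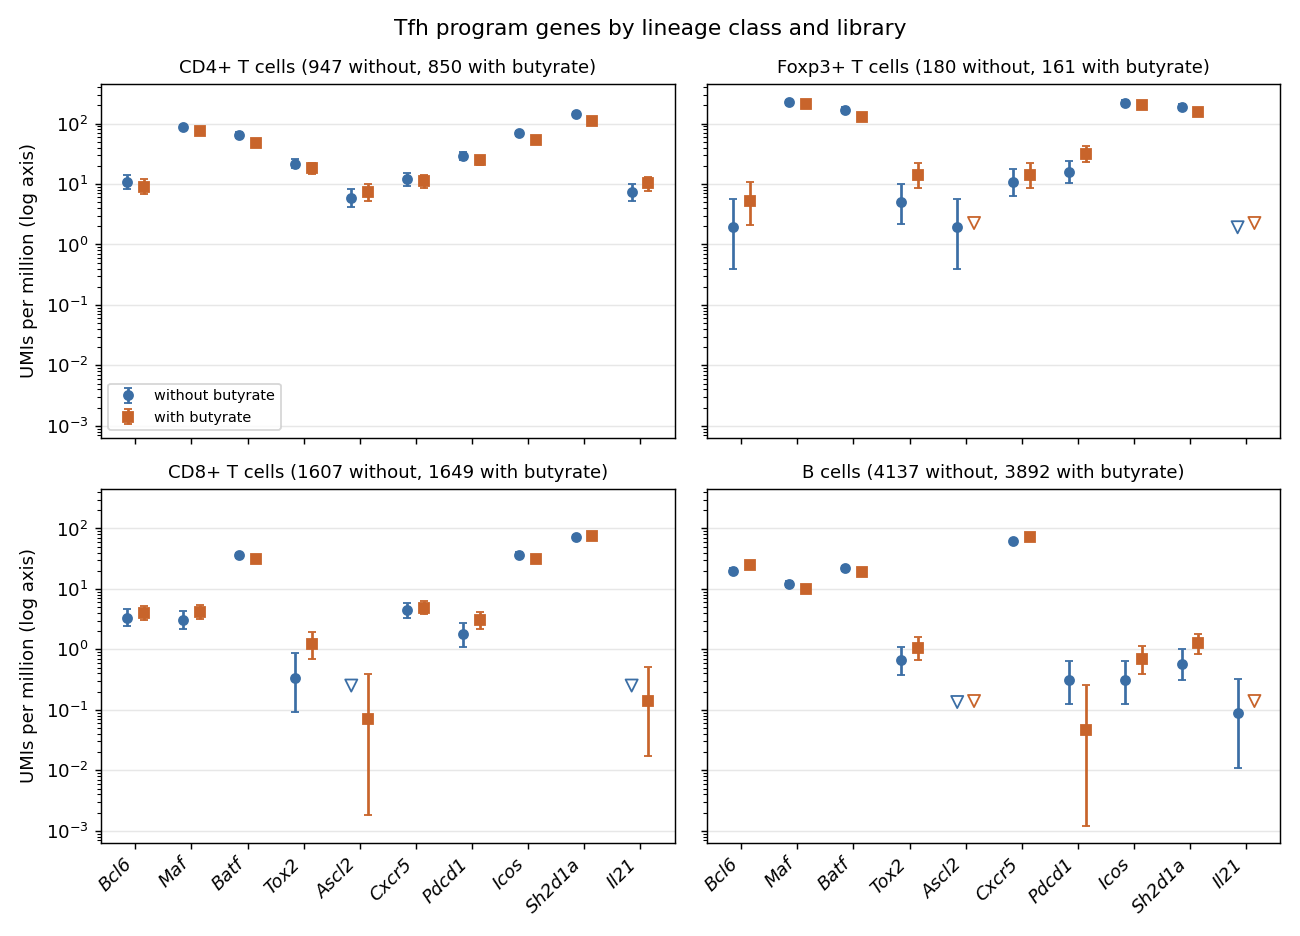
Summed level of each gene in CPM (vertical log axis) in 4 cell classes, with circles for the library w/o and squares for the library w/ butyrate. Bars are exact 95% Poisson intervals, and open triangles give the limit that 3 UMIs would set where none was read. Icos, Maf, Batf and Sh2d1a stand highest in Foxp3+ T cells, Cxcr5 and Bcl6 in B cells.

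By lineage, 8 of the 10 genes fell into groups that both libraries showed, and Pdcd1 and Sh2d1a into none of these. Sh2d1a also stood highest in Foxp3+ T cells in both libraries, but only 1.31-fold and 1.38-fold above CD4+ T cells, short of 2-fold. Maf, Batf and Icos were at least 2-fold higher in Foxp3+ than in CD4+ T cells (Maf 2.53-fold and 2.8-fold, Batf 2.58-fold and 2.69-fold), where 10% of 7838 tested genes w/o and 7.32% of 7714 w/ butyrate were that much higher. Cxcr5 and Bcl6 stood highest in B cells among the 4 classes. Tox2, Il21 and Ascl2 stood highest in CD4+ T cells among the 4 classes, with Tox2 w/ butyrate overlapping Foxp3+ T cells.

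Few CD4+ T cells carried much of the program. At least 1 member was read in 571 of 947 cells (60.3%) w/o and 514 of 850 (60.5%) w/ butyrate. At least 3 members were read in 109 cells (11.5% [9.55, 13.7]) and 86 cells (10.1% [8.17, 12.3]), and at least 4 in 68 (7.18%) and 49 (5.76%). The highest number in 1 cell was 9 w/o and 10 w/ butyrate. In Foxp3+ T cells 38.3% w/o and 31.1% w/ butyrate had at least 3 members, in CD8+ T cells 3.86% and 4.18%, and in B cells 0.701% and 0.745%. Since deeper cells show more genes, each cell was also thinned to 2000 UMIs, which left out 4 and 3 CD4+ T cells. At that depth the share with at least 3 members was 5.09% w/o and 3.54% w/ butyrate in CD4+ T cells, 14% and 10.1% in Foxp3+ T cells, 0.249% and 0.121% in CD8+ T cells, and 0.0488% and 0.0258% in B cells. The order of the classes was the same at both depths.

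**Figure D2:**
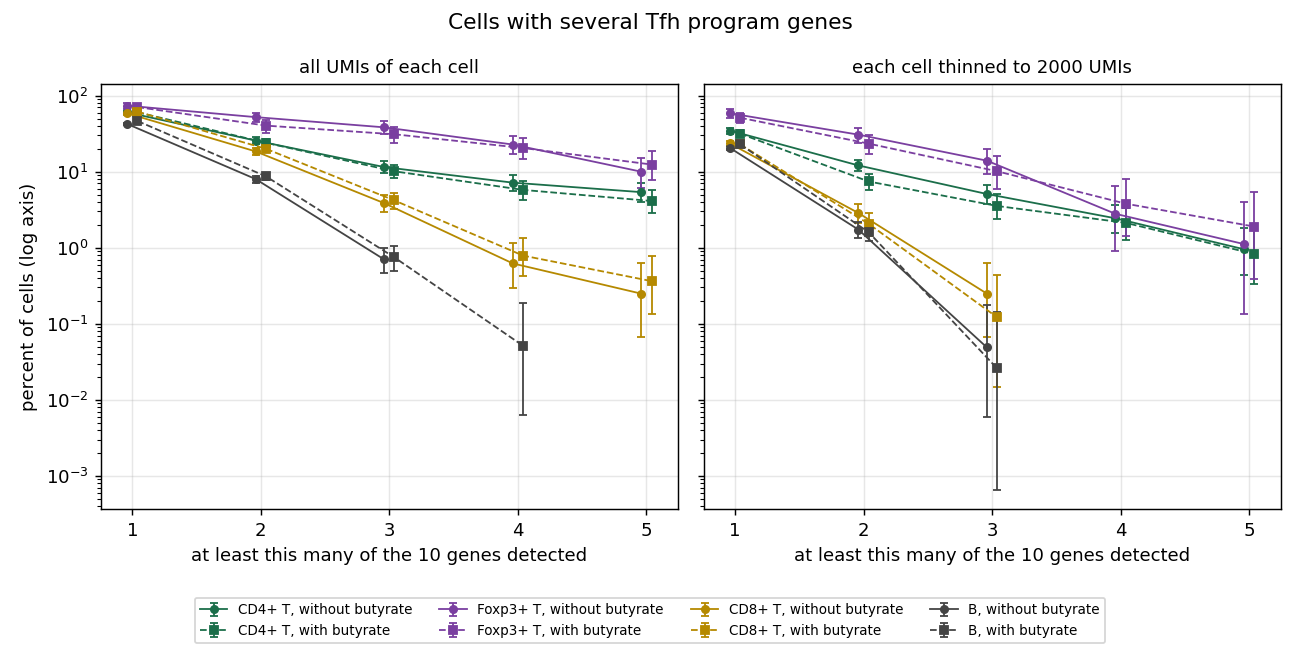
Percent of cells (log axis) with at least the given number of the 10 genes detected, by class (color) and library (solid lines w/o, dashed lines w/ butyrate), at full depth on the left and with each cell thinned to 2000 UMIs on the right. Bars are exact 95% binomial intervals, and a line ends where no cell was left. The Foxp3+ T cell lines lie above the others throughout. Their bars overlap those of CD4+ T cells on the left at 1 gene w/ butyrate and at 5 genes w/o butyrate. On the right they overlap at 4 and 5 genes.

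At full depth, where deeper cells show more genes, the less common members were often read in the same CD4+ T cells. Among CD4+ T cells with a Pdcd1 UMI, Tox2 was read in 32 of 62 (51.6%) w/o and 23 of 45 (51.1%) w/ butyrate, against 1.81% and 1.49% of cells without Pdcd1. Maf was read in all 13 Ascl2+ cells w/o and in 11 of 12 w/ butyrate, and in 18 of 18 and 16 of 17 Il21+ cells. Cxcr5 and Pdcd1, the pair by which Tfh cells are usually sorted, were read together in 18 and 20 cells. Maf was read in 28 of 44 Bcl6+ cells (63.6%) w/o and in 13 of 37 (35.1%) w/ butyrate, against 10.3% and 9.35% of cells without Bcl6. The common members Sh2d1a, Icos and Batf were read in many cells without the rest: Pdcd1 was found in 14.2% and 10.9% of Sh2d1a+ cells.

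**Figure D3:**
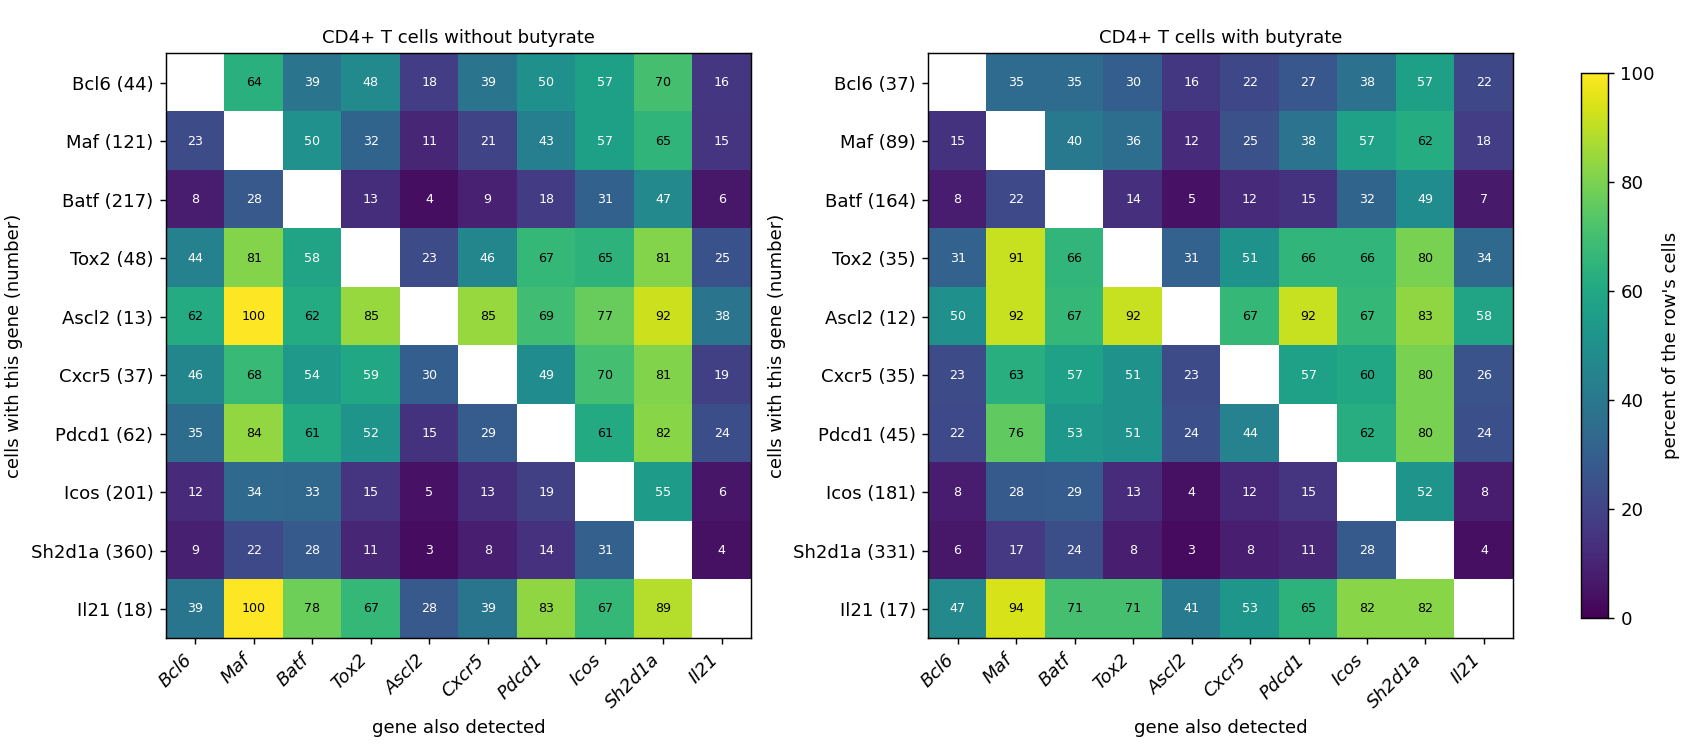
Co-detection in CD4+ T cells w/o (left) and w/ butyrate (right): each square gives the percent of the cells with the row's gene (number in brackets) in which the column's gene was also read. The rows of Ascl2, Il21, Tox2 and Pdcd1 are bright under Maf and Sh2d1a in both libraries, and the rows of Sh2d1a and Icos are dark under Ascl2 and Il21.

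In B cells the members that were read did not travel together. Cxcr5 was found in 28.1% of Bcl6+ and 26.7% of Bcl6- B cells w/o butyrate, and in 29.3% and 30.1% w/ butyrate. Maf was found in 5.23% of Cxcr5+ and 5.22% of Cxcr5- B cells w/o butyrate, and in 4.03% and 4.4% w/ butyrate. Tox2 was the exception, with 5 of its 12 B cells w/o and 7 of 14 w/ butyrate holding Bcl6. Germinal center markers were read in 49 B cells w/o and 39 w/ butyrate, and Tox2 was in 9 (18.4%) and 8 (20.5%) of them, against 3 (0.0734%) and 6 (0.156%) of the other B cells. Bcl6 was in 42.9% and 38.5% of the germinal center marker cells, at 37.26 and 50.47 CPM, and in 8.54% and 11.3% of the others, at 19.2 and 24.26 CPM. A share of cells with a UMI rises with depth, and by level Cxcr5 was lower there, at 27.39 and 38.82 CPM against 63.86 and 71.84 CPM. Batf in those cells came to 42 UMIs w/o butyrate, 29 of them in 1 cell, and 7 UMIs w/ butyrate.

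CD4+ T cells with at least 4 members could be set beside those with at most 1, as a description, since the members themselves chose the cells. The 68 and 49 cells with at least 4 had medians of 7050.5 and 9149 UMIs, against 5201.5 and 5917.5. None of their barcodes was found in the other library. Il4, the cytokine of class switching to IgE and IgG1, was read in 24 of 68 (35.3%) and 20 of 49 (40.8%), and in none of the 704 and 646 cells with at most 1 member. Il13, which Th2 cells make, was read in 1 cell of each set. The 10 leading non-member genes of these cells were Mki67, Sostdc1, Pclaf, Ube2c, Nusap1, Tk1, Lgals7, Areg, Hmmr and Il4, of which Mki67, Pclaf, Ube2c, Nusap1, Tk1 and Hmmr are genes of dividing cells. Sostdc1, a secreted BMP and Wnt antagonist, had 250 UMIs w/o and 143 w/ butyrate in the cells with at least 4 members and 0 in those with at most 1. Mki67 was read in 27.9% and 26.5% of CD4+ T cells with at least 4 members. Of the 41 and 33 Foxp3+ T cells with at least 4 members 53.7% and 33.3% held Mki67. Their medians were 11031 and 9327 UMIs, and 1 and 4 of them held Bcl6.

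Between the libraries, the members in CD4+ T cells stood mostly lower w/ butyrate, by less than 1.5-fold. All 10 had at least 50 UMIs over both libraries and were compared, 8 lower and 2 higher, with a median log2 ratio of -0.25, where the 8551 genes compared had a median of 0.0045. None of the 10 was 1.5-fold lower or higher, against 3.19% and 1.86% of all genes compared. The counting interval lay below 0 for 4 members and above 0 for none, against 8.44% and 6.15% of genes. These were Batf (64.69 to 48.61 CPM, -0.41 [-0.64, -0.18]), Sh2d1a (143.8 to 112.3 CPM, -0.36 [-0.51, -0.20]), Icos (68.67 to 54.46 CPM, -0.33 [-0.56, -0.11]) and Maf (88.36 to 74.51 CPM, -0.25 [-0.44, -0.05]), which are the 4 members with most UMIs in the class. The ratios of Bcl6 (-0.26 [-0.83, 0.30]), Tox2 (-0.27 [-0.67, 0.12]), Pdcd1 (-0.24 [-0.58, 0.10]) and Cxcr5 (-0.09 [-0.62, 0.43]) had intervals that included 0, and so did Il21 (0.47 [-0.13, 1.09]) and Ascl2 (0.29 [-0.41, 0.99]), the members with the higher ratios. The summed level of all 10 had a log2 ratio of -0.29 and kept its sign under all 10 alternatives. Pdcd1 turned to 0.10 with cells thinned to 2000 UMIs, and at that depth the intervals of Batf and Maf included 0, as did that of Maf with doublets kept. Markers of myeloid cells summed to 7.6 CPM w/o and 76.5 CPM w/ butyrate in this class. Without cells holding at least 2 UMIs of Lyz2, Csf1r and C1qa the summed ratio was below 0. That sum comes mostly from Batf, Sh2d1a, Icos and Maf, the members higher in Foxp3+ than in CD4+ T cells in both libraries. A list of 4 regulatory T cell markers, Foxp3 among them, summed to 150.5 CPM w/o and 111.8 CPM w/ butyrate in this class. By rule the class holds no Foxp3 UMI. The part of either list in these ratios was not tested.

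**Figure D4:**
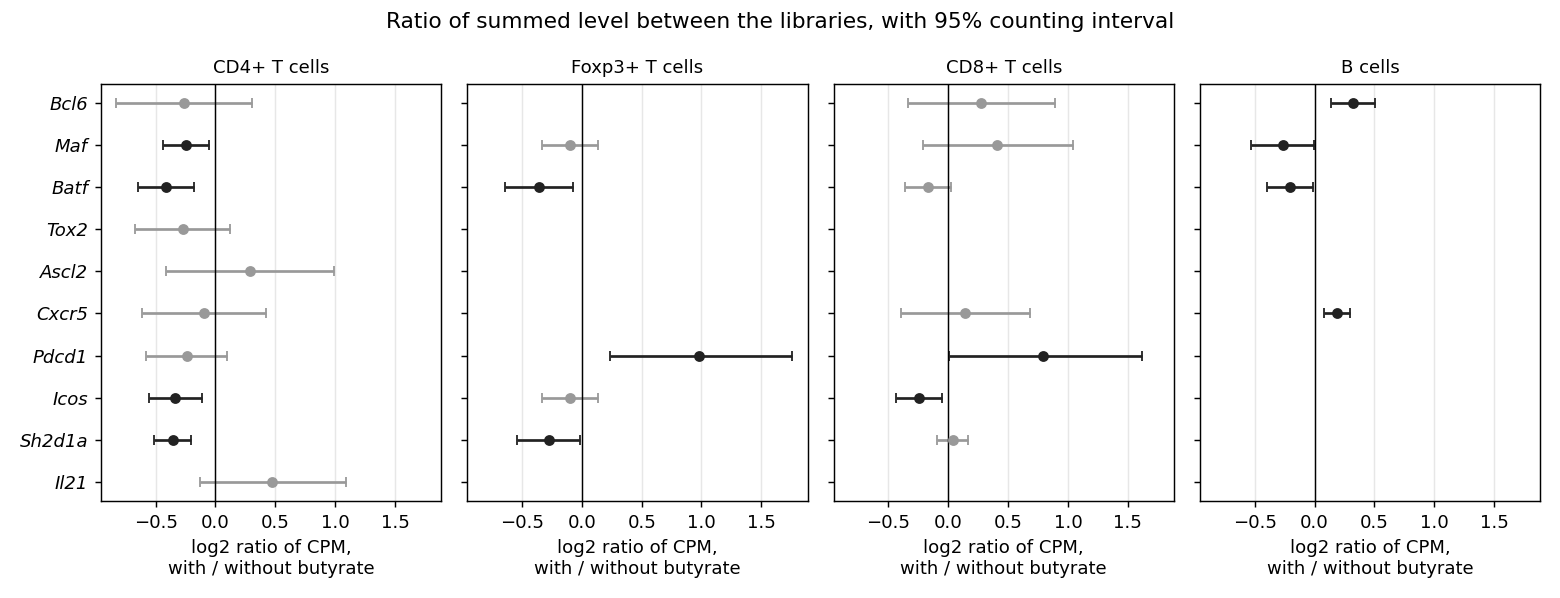
Log2 ratio of CPM, w/ over w/o butyrate, for members with at least 50 UMIs over both libraries, in 4 cell classes. Bars are 95% counting intervals, and black points are those whose interval leaves out 0: 4 below 0 in CD4+ T cells, and 2 on each side in B cells.

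The shares of CD4+ T cells differed by less than counting error at full depth. The log2 ratio of the share with at least 3 members was -0.19 [-0.61, 0.24]. With cells thinned to 2000 UMIs, at least 2 members were read in 114 of 943 cells (12.1%) w/o and 63 of 847 (7.44%) w/ butyrate, a log2 ratio of -0.70 [-1.17, -0.24], while at least 3 gave -0.52 [-1.23, 0.16] and at least 1 gave -0.14 [-0.37, 0.10]. The share with both Cxcr5 and Pdcd1 had a log2 ratio of 0.31, and the share with Il21 of 0.07, with intervals that include 0. A difference in the share of CD4+ T cells with at least 3 members, with Cxcr5 and Pdcd1, or with Il21 was not detectable at this depth.

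In Foxp3+ T cells 5 members had enough UMIs. Batf (-0.35 [-0.64, -0.07]) and Sh2d1a (-0.27 [-0.54, -0.01]) had intervals below 0, as did 9.4% of the 5691 genes compared, and Pdcd1 lay above 0, as did 6.22%. The interval of Sh2d1a left out 0 in 5 of 10 alternatives and that of Batf in 8 of 10, and the ratio of Batf was -1.12 with cells thinned to 2000 UMIs. Pdcd1 had 25 UMIs in 19 cells w/o and 42 UMIs in 18 cells w/ butyrate, a log2 ratio of 0.98 [0.23, 1.76]. It was the only member of the 5 past 1.5-fold, higher, where 3.87% of genes were that much higher and 5.43% that much lower. The share of cells with Pdcd1 was alike, 10.6% and 11.2%, so the higher sum lay in more UMIs per positive cell, up to 7 in 1 cell. Maf and Icos had ratios of -0.10 each, with intervals that included 0. In this class the 3 myeloid markers summed to 93.1 CPM w/o butyrate and were at 0 w/ butyrate, and the interferon-response list stood at 3367 and 1860 CPM. Without cells holding at least 2 myeloid UMIs the ratios were -0.39 for Batf, -0.31 for Sh2d1a and 0.94 for Pdcd1. The interferon list's part in these ratios was not tested.

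In CD8+ T cells 7 members were compared. Icos had an interval below 0 (-0.24 [-0.44, -0.05]), as did 8.73% of the 9489 genes compared, and it left out 0 in 8 of 10 alternatives. Pdcd1 had an interval above 0 (0.79 [0.01, 1.62]), as did 8.1%, and was past 1.5-fold higher, as were 1.51% of genes, with 1.94% that much lower. It had 21 UMIs in 8 cells and 43 UMIs in 17 cells, and with likely doublets kept its ratio was -0.04. Sh2d1a, the member with most UMIs there, had a ratio of 0.04 [-0.09, 0.17].

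In B cells 4 members were compared, and they went in both directions. Bcl6 was higher w/ butyrate, with a log2 ratio of 0.32 [0.14, 0.51], and read in 370 of 4137 cells (8.94%) w/o and 450 of 3892 (11.6%) w/ butyrate. Cxcr5 was higher by 0.19 [0.08, 0.29], read in 26.8% and 30% of cells. Thinned to 2000 UMIs per cell, Bcl6 was read in 4.3% and 4.96% of cells and Cxcr5 in 11.8% and 13.3%. Batf (-0.21 [-0.40, -0.01]) and Maf (-0.27 [-0.53, -0.0028]) lay lower. Intervals above 0 were found for 17.1% and below 0 for 9.27% of the 10372 genes compared, whose median was 0.0484, and none of the 4 was past 1.5-fold, against 3.21% lower and 1.4% higher. In B cells without germinal center markers, Bcl6 had the same ratio within counting error (0.34 [0.15, 0.53]). The interval of Batf left out 0 in 7 of 10 alternatives and that of Maf in 8 of 10, while those of Bcl6 and Cxcr5 included 0 only with cells thinned to 2000 UMIs. In the same class the plasma cell list stood at 958 CPM w/o and 320 CPM w/ butyrate, and the germinal center list at 89.0 and 54.2 CPM. The part of plasma cells in these ratios was not tested.

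The B cell partners of the program were also read in B cells. Icosl, the ligand of Icos, stood at 76.73 CPM w/o and 91.88 CPM w/ butyrate (0.26 [0.17, 0.35]). Il21r, the receptor for Il21, stood at 112.5 and 126.5 CPM (0.17 [0.09, 0.25]), and Cd40, which receives Cd40lg, at 53.16 and 61.35 CPM (0.21 [0.09, 0.32]). Of the PD-1 ligands, Cd274 stood at 26.72 and 23.63 CPM (-0.18 [-0.35, -0.0035]) and Pdcd1lg2 at 25.01 and 25.22 CPM (0.01 [-0.16, 0.19]). Among all genes compared in B cells, 17.1% had intervals above 0 and 9.27% below 0. Cxcl13, the ligand of Cxcr5, had 3 and 10 UMIs in all B cells.

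Of a wider list of 35 genes of Tfh cells and their rivals, 32 could be compared in CD4+ T cells, with a median log2 ratio of -0.03 and none past 1.5-fold. Intervals lay below 0 for 5 genes, Cd40lg, Tox, Btla, Klf2 and Ctla4, and above 0 for 2, Stat3 and Tcf7, where 8.44% and 6.15% of all genes compared did so. Tcf7, the factor that precedes Bcl6, stood at 427.5 and 478.8 CPM, with a log2 ratio of 0.16. Il4 stood at 13.37 CPM w/o and 18.09 CPM w/ butyrate (0.44 [-0.01, 0.89]), with 47 of its 102 UMIs w/ butyrate in 1 cell. Gata3, the Th2 factor, stood at 56.7 and 61.4 CPM, and Prdm1, the repressor that opposes Bcl6, at 5.1 and 3.9 CPM. Il13 came to 13 UMIs in 2 cells w/o and 27 UMIs in 1 cell w/ butyrate. In Foxp3+ T cells 30 genes could be compared. Intervals lay above 0 for 11 (Il6ra, Il6st, Lef1, Id3, Ly9, S1pr1, Klf2, Ccr7, Foxp1, Bach2 and Izumo1r) and below 0 for Id2 and Tnfsf8, where 6.22% and 9.4% of all genes compared did so. Il6st, Id3 and Ccr7 were past 1.5-fold higher, as were 3.87% of all genes.

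Over the 14 points given by classes of at least 100 cells in both libraries, the genes whose level was most like the mean of the 10 members were Smco4 (Pearson r 0.958), Ptpn7 (0.941), Pkm (0.912), Glg1 (0.908) and Anp32a (0.905), out of 3595 genes considered. Of the members, Pdcd1 (0.95) and Maf (0.939) lay closest to that mean, and Bcl6 (-0.23) and Cxcr5 (-0.03) farthest. Each member is itself part of that mean, which favours a high r by construction. The points include unassigned T cells and cells with both Cd3e and Cd79a UMIs. They share 2 libraries and are no independent samples, so the values are a description.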

How the data were processed

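Single-cell suspensions of MedLNs from OVA-treated mice, without and with butyrate, were sequenced as 1 library each, with 4 mice pooled per library. The authors deposited raw UMI counts per gene and cell, made with Cell Ranger 6.0.1 on mm10 (per the submitters' processing notes), without normalization. The deposited counts were filtered to cells with at most 10% mitochondrial UMIs and at least 200 genes (186 and 327 cells removed). Scrublet in scanpy 1.11.5 scored doublets, and the highest-scoring 721 and 592 cells were removed (0.8% per 1000 cells). Classes were set by UMIs of marker genes, and UMIs were summed per class and scaled to CPM. Fold summaries cover genes with at least 50 UMIs over both libraries, with no pseudocount, and a sum of 0 set to 3 counts.

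With 1 library per condition no test was run; shares have exact Clopper-Pearson, levels exact Poisson and ratios exact conditional binomial 95% intervals, from scipy 1.17.1. The genes named are the 10 members, the B cell partners, those of the wider list that stood apart, the 5 genes most like the member mean (log2 of CPM plus 10, genes of at least 50 CPM in 1 class) and the 10 leading genes of cells with at least 4 members. Members and lists were chosen with earlier results of these data known. In simulated CD4+ T cell sums of 8561 genes, 200 genes were changed 2-fold, with counting error as the only noise. All 200 came out in the right direction and 194 passed 1.5-fold. Smaller changes, and differences between mice or library preparations, were not simulated. Alternatives changed the filters, class rules, depth and scaling. RefSeq promoter entries matched 6 of 10 members.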

Additional observations from a re-analysis of the deposited data

Results flagged for a closer look

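Il21 was also read outside the 4 classes compared, in the cells that held both Cd3e and Cd79a UMIs. Of the results above, these cells enter only the correlation over classes of at least 100 cells. There the library w/ butyrate had 27 Il21 UMIs, against 7 UMIs in 3 cells of the library w/o butyrate. All 27 lay in 1 cell with 75016 UMIs, which also held 1168 Il4, 1085 Il13 and 59 Gata3 UMIs. Of the other members it held 42 Maf, 26 Batf, 24 Pdcd1, 10 Sh2d1a, 4 Icos and 4 Tox2 UMIs, and no Bcl6, Cxcr5 or Ascl2. The summed Il21 level of that set was 25.4 CPM w/ and 7.23 CPM w/o butyrate, and it rests on that cell. Whether the cell is a doublet was not tested beyond the doublet score that let it pass.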

How the results depend on the processing

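Of 409 values computed under alternatives for 42 results, 385 fell inside the 95% interval given with the result, or for counts within 1.5 times it. Settings that left out cells over 20000 UMIs or cells with myeloid UMIs were chosen after seeing the data. The log2 ratio of the summed members in CD4+ T cells ranged from -0.40, with Cd3e of at least 2 UMIs, to -0.27. In Foxp3+ T cells it was -0.12 as reported, -0.38 with cells thinned to 2000 UMIs and -0.29 without cells over 20000 UMIs. Pdcd1 in CD8+ T cells turned from 0.79 to -0.040 with doublets kept. The number of members 1.5-fold lower in CD4+ T cells rose from 0 to 1 with Cd3e of at least 2 UMIs, and the number higher to 1 without cells over 20000 UMIs. In Foxp3+ T cells the 1 member higher became 0 with thinning, with at least 200 UMIs per gene and without cells over 20000 UMIs, and the number lower rose to 1 with thinning. In CD8+ T cells the 1 member higher became 0 with doublets kept, at most 5% mitochondrial UMIs, thinning, a pseudocount of 10 CPM, at least 200 UMIs per gene or no cells over 20000 UMIs, and 2 with a Cd79a limit of 1 UMI. In B cells that limit gave 1 member lower in place of 0. Some settings compare fewer members by construction, since a gene under the UMI limit is left out: Pdcd1 in Foxp3+ T cells had log2 ratios between 0.82 and 1.06 in the 8 alternatives that kept it. For the other changes the cause was not tested. No paired analysis was possible because each condition has 1 library, and for the same reason no replicate could be left out. Il21 and Ascl2 rest on fewer than 20 CD4+ T cells per library, which limits what their ratios can show.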

Other observations

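Unassigned T cells, which hold no Cd4, Cd8a or Foxp3 UMI, lie outside the 4 classes compared above. The levels of the 10 members in them are given w/o and then w/ butyrate. Sh2d1a stood at 99.3 and 100.7 CPM, and Icos at 44.0 [38.7, 49.9] and 55.6 CPM [49.2, 62.7]. Batf stood at 43.0 and 36.8 CPM, and Maf at 28.7 [24.4, 33.5] and 40.9 CPM [35.4, 47.1]. Icos and Maf thus stood higher w/ butyrate here and lower in CD4+ T cells, while Batf stood lower in both. Sh2d1a was nearly level here and lower w/ butyrate in CD4+ T cells. The level intervals of the libraries overlapped for Sh2d1a, Icos and Batf and not for Maf. Overlap of level intervals is a stricter rule for a difference than the ratio interval used above. It does not show that Icos or Batf was alike in the libraries. Bcl6 stood at 7.40 and 8.48 CPM, Pdcd1 at 6.86 and 3.72 CPM, Cxcr5 at 4.87 and 3.10 CPM, and Tox2 at 2.17 and 2.27 CPM. Il21 had 2 and 3 UMIs, and Ascl2 7 and 0.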
